A study of Rattus norvegicus with 4 samples.

Results

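YAP and TEAD regulators and targets were examined in RT4D6 cells, a rat Schwannoma line derived from a tumour of Schwann cells, which ensheath the axons of peripheral nerve. The group was set as 10 genes, the co-activators Yap1 and Wwtr1 (TAZ), the DNA-binding partner Tead1, the regulators Lats2, Amotl2 and Ajuba, and the target genes Ccn1 (older name Cyr61), Ccn2 (older name Ctgf), Ankrd1 and Axl. Every probe set whose platform annotation holds exactly one of these symbols was taken, which gave 12 probe sets for 9 of the 10 genes, out of 14217 genes with a probe set of a single symbol. Yap1 was not analysed here, since no probe set was matched to its symbol alone. The study lowered the transcription factor Sox10 with small interfering RNA (siRNA), and total RNA of 4 cell samples was hybridised to separate arrays. Of these, 2 samples had received the wild type (specific) Sox10 siRNA and 2 the mutant (control) siRNA, all for 48 h, and the study describes them as 2 independent pairs, numbered replicate 1 and replicate 2. All 4 samples are of the same tumour line, so that the mutant siRNA arrays are a transfected control and not normal nerve. Tests with 2 arrays a group speak for these samples only.

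The Hippo pathway is a kinase cascade that restrains YAP and TAZ. LATS kinases, switched on by MST kinases and by MOB1 and NF2 proteins, phosphorylate YAP and TAZ and keep them out of the nucleus, where they would otherwise bind TEAD factors and switch on genes such as Ccn1, Ccn2 and Ankrd1. Lats2 and Amotl2 are known both as targets of YAP and as brakes on it. In Schwann cells, YAP and TAZ are known to be needed for proliferation and myelination in the developing nerve.

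TEAD factors are known to bind DNA that holds the letters GGAATG, read as CATTCC on the other strand. The promoter sequences of RefSeq on the rat build GRCr8, from 250 bases before to 50 bases after the gene start, were searched for this motif of 6 letters on both strands. Of 33469 promoters, 4749 (14.2%) hold at least 1 match, and 32 (0.0956%) hold 3 or more. A promoter was matched for 7 of the 10 genes, and the 3 genes without an entry are Tead1, Lats2 and Ankrd1. Matches were found for Ccn1, Ccn2, Amotl2, Ajuba and Yap1, and none was found in these windows for Wwtr1 and Axl. Of the measured genes with a match, Ccn1, Ccn2 and Amotl2 were not called without pairing of the arrays. They were higher in the fit with paired arrays described further on, and Ajuba was called in neither. Whether the motif has a part in these changes was not tested. The stretches around the matches of these genes are shown. Each is 30 bases, 5′ to 3′ on the strand of the gene, with the motif in capitals. A match is a description of the sequence, not a site of binding.
Ccn2, first match, chr1:22624763-22624792, minus strand: ttttcagacggaGGAATGtggagtgtcaag
Ccn2, other matches, chr1:22624693-22624722, minus strand: gtggggaGGAATGcgaGGAATGtccctgtt
Ccn1, chr2:237225785-237225814, minus strand: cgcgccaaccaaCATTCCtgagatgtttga
Amotl2, chr8:112182538-112182567, plus strand: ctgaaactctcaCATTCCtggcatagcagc
Ajuba, chr15:32000261-32000290, minus strand: tgcccctccgcaCATTCCaactgtaaacaa
The Ccn2 promoter thus holds 3 matches, whose first bases lie 166, 101 and 92 bases before the gene start. The match of Ccn1 begins 113 bases and that of Amotl2 76 bases before the start.

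Values are MAS5 signals, one brightness per probe set on a linear scale, and the array median lay between 101.3 and 110.4. The array median was subtracted on the log2 scale, and limma was run on the 16125 probe sets at or above it on at least 2 arrays. Its tests draw the variance of each probe set partly from the other probe sets of like intensity. A log2 fold change is wild type minus mutant siRNA, and the threshold for a call was an adjusted p (Benjamini-Hochberg) under 0.05. The median change of all tested probe sets was 0.13 on this scale, against 0.05 without centring and 0.08 with quantile normalization, so that small positive changes are to be read against that shift.

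The targeted gene followed the labels on all arrays, with Sox10 signals of 163 and 335 with the wild type siRNA and 2873 and 2890 with the mutant siRNA. Of 6 Schwann and glial markers with a probe set, 5 were bright enough to test, and these 5 (Sox10, Ngfr, Erbb3, S100b and Gfap) were lower with the wild type siRNA. Erbb3 was at or above the median on the mutant siRNA arrays only, and so could enter the test only with a difference. Gfap alone of these fell short of the threshold with an array left out, namely mutant siRNA replicate 1 (adjusted p = 0.0523 from limma). The brightest probe set of Mbp had signals between 19.3 and 113 on the 4 arrays. The summed level of the 6 genes was 9.74 and 15.01 times the array median with the wild type siRNA and 144 and 103 times with the mutant siRNA. In such bulk samples, fewer cells of a type and less RNA per cell cannot be told apart. Of 5 macrophage markers none reached the filter, and their summed level was between 0.775 and 2.29 times the median on all arrays. The 3 endothelial markers with a probe set had a summed level between 1.16 and 2.79 times, and Kdr and Pecam1 did not reach the filter. Of 6 fibroblast markers only Col1a1 was tested. Its brightest probe set did not pass (log2 fold change 0.70, adjusted p = 0.0832 from limma) but did under the replicate block (adjusted p = 0.0240). Its other probe set was at -0.04 (adjusted p = 0.946, and 0.920 under the replicate block). The summed level of the 6 fibroblast markers was 18.5 and 29.2 times the median with the wild type siRNA and 14.9 and 13.9 times with the mutant siRNA. The brightest Col1a1 probe set alone lay at 16.2 and 28.3 times with the wild type siRNA and 13.9 and 12.4 times with the mutant siRNA.

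Of the 12 probe sets, all lay at or above the array median on every array. Probe sets of 2 genes, Ankrd1 and Lats2, were higher with the wild type siRNA, and none of the 12 was called lower by limma. The 3 calls are 25% of the probe sets, against 26.7% of all probe sets tested that were called in either direction (14.6% higher and 12.1% lower), so the share called was near that of the whole array. At an unadjusted p under 0.05 there were 5 higher and 1 lower with limma, against 23.6% and 17.7% of all tested probe sets, and 1 higher and 0 lower with the methods' t-test, against 15.2% and 8.6%. The groups of 2 arrays did not overlap for 7 of the 12 (58.3%), against 68.7% of all tested probe sets. The median change over the 12 was 0.38, against 0.13 over all tested probe sets. Of the 12 changes, 10 were positive, both probe sets of Ankrd1 and both of Ajuba among them. The smallest of these was 0.02, for the first Ajuba probe set, and 44.0% of all tested probe sets had a lower change than that. With the replicate number as a block, which compares the arrays within each pair, 6 of the 12 probe sets were called (50%), all of them higher, against 36.5% of all probe sets (20.5% higher and 16% lower). The additional calls were Ccn1, Ccn2 and Amotl2. With so few arrays, the blocked fit leaves little spread for a single probe set, and its variance comes mostly from the other probe sets. The calls under the block thus do not rest mainly on the spread of these genes themselves. Arrays of the same replicate number deviated together from their groups' means with a correlation of only 0.14.

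**Figure D1:**
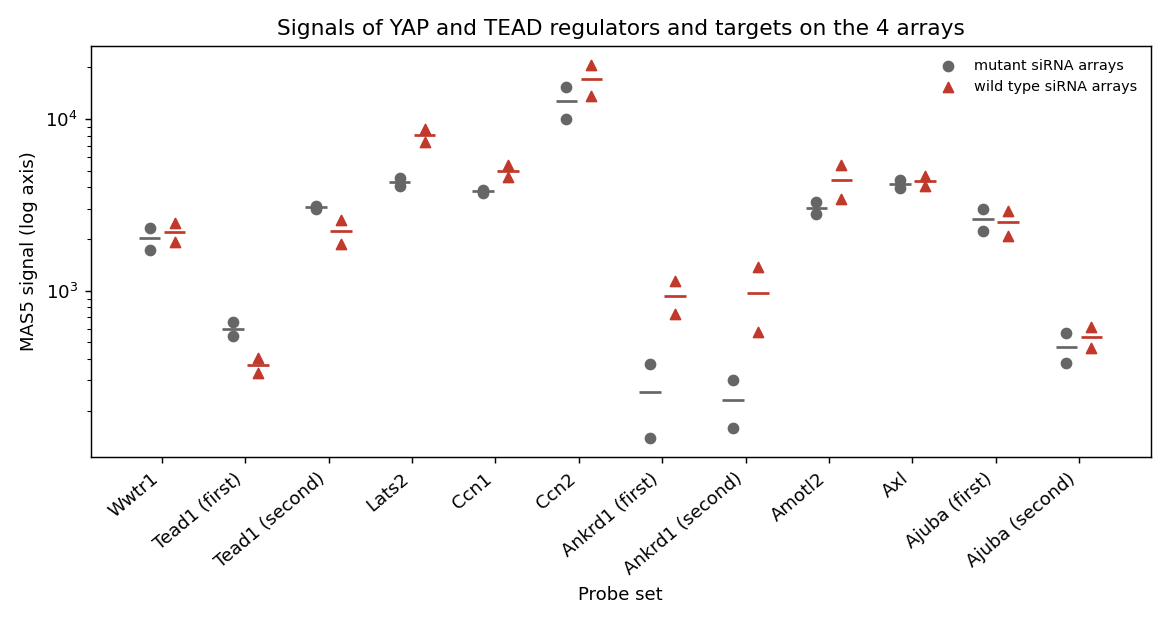
Brightness (MAS5 signal, log axis) of the 12 probe sets by array, with mutant siRNA arrays as grey circles, wild type siRNA arrays as red triangles and the mean of the 2 arrays of a group as a short line. The Ankrd1 and Lats2 triangles lie above the circles, those of Tead1 below, and those of Wwtr1, Ccn2, Axl and Ajuba overlap with them. A gene with several probe sets has them marked first and second in the order of the text.

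Among the regulators, Wwtr1 (TAZ), the only co-activator of the pair that was measured, did not differ beyond the spread between arrays. Its probe set (1374092_at) had signals of 2492.5 and 1924 with the wild type siRNA, against 2334 and 1727 on the mutant siRNA arrays. The groups overlapped, and both replicate 1 arrays were brighter than both replicate 2 arrays. On the log2 scale the change was 0.20, with a 95% interval from -0.30 to 0.71 (adjusted p = 0.519 from limma). Without mutant siRNA replicate 2 the change was -0.03 (adjusted p = 0.948).

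Tead1, a factor that carries YAP and TAZ to DNA, had lower signals with the wild type siRNA in both of its probe sets but did not pass the test. The first (1373808_at) had signals of 331 and 405.5 with the wild type siRNA, against 541 and 657 on the mutant siRNA arrays. The groups did not overlap, and the differences within the pairs were alike, at -0.68 and -0.57 on the log2 scale. This amounted to a log2 fold change of -0.62 with a standard error of 0.24 (limma, adjusted p = 0.0891, and 0.0511 with the replicate block). The second (1389287_at) had signals of 1872 and 2578 with the wild type siRNA and 3113 and 3007.5 with the mutant siRNA. Here the pairs differed, with -0.70 in replicate 1 and -0.10 in replicate 2. Over both pairs it was at -0.40 with a standard error of 0.21 (adjusted p = 0.185). Without wild type siRNA replicate 2 it was -0.66 and passed (adjusted p = 0.0434), in a fit that takes the lone array to vary like the other group.

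Lats2, a kinase that phosphorylates YAP and TAZ, rose with the wild type siRNA. Its probe set (1390207_at) had signals of 7303 and 8772 with the wild type siRNA and 4096.5 and 4550.0 with the mutant siRNA. Both wild type siRNA arrays were far above both mutant siRNA arrays, and the differences within the pairs were 0.87 and 1.07 on the log2 scale. The mean signal was 8038 ± 1039 against 4323 ± 321 (SD, n = 2 each). Its log2 fold change of 0.97, with a standard error of 0.17, is a 1.96-fold increase (limma, adjusted p = 0.00648). In the 13 other fits with limma the change was between 0.81 and 1.13 and the adjusted p at most 0.0486.

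Amotl2, a junction protein of the angiomotin family that binds YAP, had signals of 3432 and 5397 with the wild type siRNA, against 2796 and 3294 on the mutant siRNA arrays (probe set 1389546_at). The groups did not overlap, though the lower wild type siRNA array lay close to the higher mutant siRNA array. With a log2 fold change of 0.58 and a standard error of 0.24 it did not pass (limma, adjusted p = 0.103). Under the replicate block it passed (adjusted p = 0.0138). The size rests on 1 array of the pair, since the change was 0.94 without wild type siRNA replicate 1 (adjusted p = 0.0133) and 0.23 without wild type siRNA replicate 2 (adjusted p = 0.459).

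Ajuba, a LIM domain protein that holds back LATS kinases, did not differ beyond the spread in either probe set. The first (1373122_at) had signals of 2095 and 2923 with the wild type siRNA, against 2216 and 2994 on the mutant siRNA arrays. The second (1388230_at) had signals of 465 and 612 with the wild type siRNA and 379 and 564 with the mutant siRNA. In both, the replicate 2 arrays were the brighter ones whatever the siRNA. The log2 fold changes were 0.02 and 0.28, with 95% intervals from -0.51 to 0.55 and from -0.35 to 0.92 (adjusted p = 0.957 and 0.469 from limma). The sign of the first turned with scaling, to -0.06 with signals as deposited and -0.10 after quantile normalization.

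**Figure D2:**
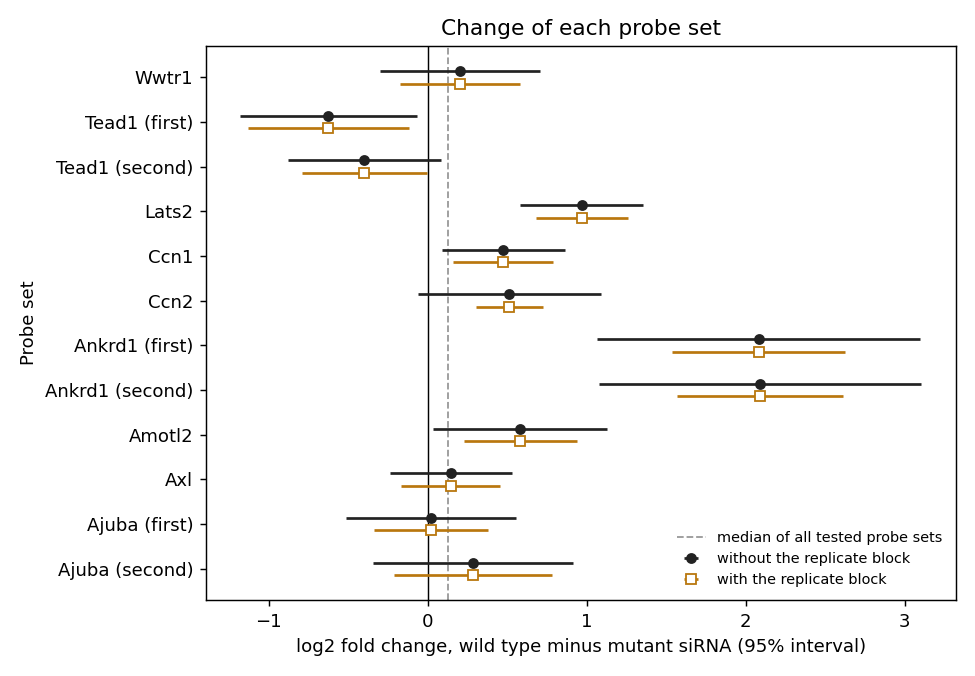
Log2 fold change, wild type minus mutant siRNA, of each of the 12 probe sets with its 95% interval, without (black circles) and with (open squares) the replicate block. The dashed line is the median of all tested probe sets, 0.13. Lats2 and both Ankrd1 probe sets lie to the right of it with their whole intervals in both fits, and the interval of Ccn2 goes from -0.06 to 1.09 without the block and from 0.30 to 0.73 with it.

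Among the targets, Ankrd1, an ankyrin repeat protein of the nucleus and the sarcomere known from muscle, rose most of the 9 genes. Its first probe set (1367664_at) had signals of 729 and 1145.5 with the wild type siRNA, against 138 and 376 on the mutant siRNA arrays. Its second (1367665_at) had 577 and 1367 with the wild type siRNA and 160 and 304 with the mutant siRNA. In both, the groups did not overlap, and the replicate 2 array was the brighter of each group. The log2 fold changes were 2.08 and 2.09 (standard errors 0.44 and 0.44, adjusted p = 0.0125 and 0.0123 from limma), increases of 4.23-fold and 4.26-fold. Of all tested probe sets, 98.9% had a lower change than either. The differences within the pairs were 2.43 and 1.73 for the first and 1.89 and 2.29 for the second. Both calls were lost when the variance was fitted without a trend on intensity (adjusted p = 0.0580 and 0.0574), and neither probe set passed the methods' t-test (unadjusted p = 0.119 and 0.118). The second was also lost without mutant siRNA replicate 1 (log2 fold change 1.64, adjusted p = 0.0691).

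Of 10 smooth muscle markers, 5 were bright enough to test. Myl9, Tagln and Acta2 were higher with the wild type siRNA, at log2 fold changes of 4.59, 1.72 and 2.37. Myh11 was at or above the median on the wild type siRNA arrays only, and so could enter the test only with a difference. Myh11 and Smtn did not pass, at 1.37 and -0.84 (adjusted p = 0.137 and 0.0633 from limma), Smtn passed under the replicate block (adjusted p = 0.0127), and Acta2 missed the threshold without mutant siRNA replicate 1 (adjusted p = 0.0808). Acta2 had signals of 2068.5 and 5316 with the wild type siRNA, against 376 and 1214 on the mutant siRNA arrays. The summed level of the 10 genes was 310 and 439 times the array median with the wild type siRNA and 64.2 and 113 times with the mutant siRNA. Cnn1, Des, Actg2, Lmod1 and Myocd lay between 14.3 and 96.6 on all arrays and did not reach the filter. Whether these markers have a part in the change of Ankrd1 was not tested.

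Ccn1, a secreted matrix protein of the CCN family, had signals of 4622 and 5385 with the wild type siRNA, against 3703 and 3877 on the mutant siRNA arrays (probe set 1368290_at). The groups did not overlap. The difference was 0.48 on the log2 scale with a standard error of 0.17, or 1.39-fold, and did not pass (limma, adjusted p = 0.0682). With the replicate block it passed (adjusted p = 0.0216).

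Ccn2, the connective tissue growth factor and a further secreted CCN protein, had signals of 13610 and 20748 with the wild type siRNA, against 10025 and 15404 on the mutant siRNA arrays (probe set 1367631_at). The groups overlapped, as mutant siRNA replicate 2 was brighter than wild type siRNA replicate 1. Within the pairs, however, the wild type siRNA array was the brighter one in both, by 0.47 and 0.55 on the log2 scale. Without regard to the pairs, the log2 fold change of 0.51 had a standard error of 0.25 and did not pass (limma, adjusted p = 0.157). With the replicate block the standard error was 0.10 and the probe set passed (adjusted p = 0.00124). Without wild type siRNA replicate 1 the change was 0.85 and passed (adjusted p = 0.0337), and without wild type siRNA replicate 2 it was 0.18 (adjusted p = 0.611).

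Axl, a receptor tyrosine kinase of the TAM family, had signals of 4096 and 4642 with the wild type siRNA, against 3944 and 4392 on the mutant siRNA arrays (probe set 1398347_at). The groups overlapped, and the replicate 2 arrays were the brighter ones. Its log2 fold change of 0.15 had a 95% interval from -0.24 to 0.53 (adjusted p = 0.545 from limma). Its change was close to the median of all tested probe sets.

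**Figure D3:**
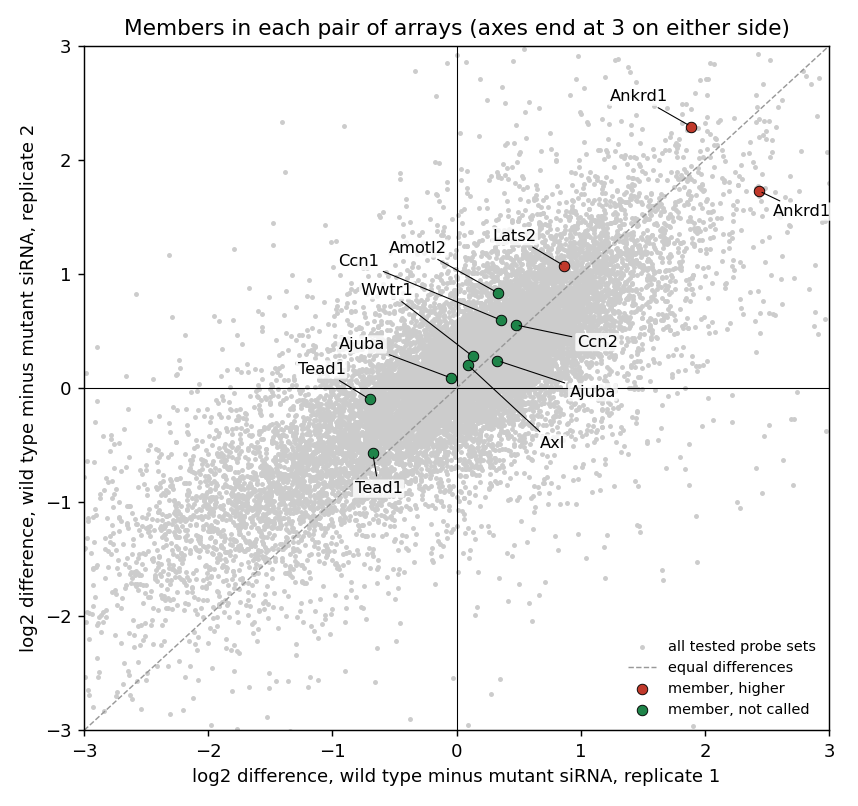
Log2 difference between the wild type and the mutant siRNA array in replicate 1 (horizontal) and in replicate 2 (vertical). Grey points are all tested probe sets, of which 379 lie outside the axes, and larger points the 12 probe sets of the group, red where called higher and green where not called without the replicate block. Ccn1, Ccn2 and Amotl2 lie above 0 in both pairs, at 0.35 and 0.60 for Ccn1. So do Lats2, both Ankrd1 probe sets, Wwtr1, Axl and the second Ajuba probe set, whereas both Tead1 probe sets lie below 0 in both pairs.

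The other genes of the pathway were taken in 6 lists with 1 probe set per gene, the brightest. Of 54 genes, 51 had a probe set and 42 were tested, of which 6 were higher (14.3%), 6 lower (14.3%) and 30 not called, against 14.6% and 12.1% of all tested probe sets. Of the 42, Mob1b, Ccn5, Nt5e and Mertk reached the filter only through the 2 arrays of the group where they were brighter, so that these genes could enter the test only with a difference. Of the 12 calls, those of Taok1 and Mob1b alone were kept with each array left out in turn, and that of Mob1b is not independent of the filter.

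Of the Hippo kinases and their upstream activators, 11 of 14 genes were tested. Of these, 4 were higher and none lower, against 14.6% and 12.1% of all tested probe sets. The median change was 0.29, against 0.13 over all probe sets. At an unadjusted p under 0.05 the counts were 5 higher and 0 lower with limma (23.6% and 17.7% of all tested probe sets), and 4 higher and 0 lower with the methods' t-test (15.2% and 8.6%). Mob1b, an activating subunit of LATS kinases, had signals of 436 and 336 with the wild type siRNA and 86.6 and 81.8 with the mutant siRNA. This was a change of 2.26 on the log2 scale with a standard error of 0.33 (limma, adjusted p = 0.00366), in a gene that only the wild type siRNA arrays brought past the filter. Taok1, a kinase upstream of the MST kinases, had signals of 2266 and 2657 with the wild type siRNA, against 865 and 768 on the mutant siRNA arrays. The change was 1.67 with a standard error of 0.20 (adjusted p = 0.00220). In both genes the groups lay far apart. Nf2 (merlin), a tumour suppressor whose loss gives rise to Schwannomas, had signals of 1379 and 997 with the wild type siRNA and 723 and 692 with the mutant siRNA, a log2 fold change of 0.81 (adjusted p = 0.0297). This call was lost without wild type siRNA replicate 1, mutant siRNA replicate 1 or mutant siRNA replicate 2 (adjusted p = 0.127, 0.0968 and 0.131). Lats1, the paralog of Lats2, was at 0.80 (adjusted p = 0.0224), and fell short of the threshold without mutant siRNA replicate 1, wild type siRNA replicate 2 or mutant siRNA replicate 2 (adjusted p = 0.123, 0.0516 and 0.0635). Stk3 and Stk4, the MST kinases, were at 0.54 and 0.29 (adjusted p = 0.0749 and 0.354), and Stk3 passed with the replicate block (adjusted p = 0.0486). Probe sets of Map4k4, a kinase that can act on LATS, disagreed. The brightest was at -0.34 and a further one at -0.44 (adjusted p = 0.217 and 0.308 from limma). Another was called higher at 0.80 (adjusted p = 0.0195).

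Of the junction and polarity partners, 9 of 11 genes were tested, with 1 higher and 1 lower, against 14.6% and 12.1% of all tested probe sets. The median change was -0.02. At an unadjusted p under 0.05 there were 2 higher and 1 lower with limma (23.6% and 17.7% of all tested probe sets). With the methods' t-test there were 1 higher and 0 lower (15.2% and 8.6%). Amotl1, a further angiomotin protein, fell by 0.81 on the log2 scale (signals of 852 and 1310 against 2019 and 1888, adjusted p = 0.0434 from limma). This differs in sign from Amotl2, at 0.58, though the difference between the genes was not tested. Probe sets of Amot, of the same family, disagreed. The brightest was at -0.22 (limma, adjusted p = 0.541) and another at 0.87 (adjusted p = 0.0588, and 0.0345 with the replicate block). The call of Amotl1 was lost without wild type siRNA replicate 1, mutant siRNA replicate 1 or mutant siRNA replicate 2 (adjusted p = 0.188, 0.172 and 0.122). Fat4, a giant cadherin, was higher at 1.31 (adjusted p = 0.0470), with signals of 230 and 425 against 104 and 170. That call was lost with signals as deposited (adjusted p = 0.0521) and without mutant siRNA replicate 1, wild type siRNA replicate 2 or mutant siRNA replicate 2 (adjusted p = 0.194, 0.210 and 0.0671). Limd1, of the same LIM protein family as Ajuba, was at -0.55 (adjusted p = 0.180), and Wtip, likewise of that family, was at 0.90 (adjusted p = 0.105) and passed with the replicate block (adjusted p = 0.0354).

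Of the TEAD factors and VGLL cofactors, which share the TEAD surface with YAP, all 5 genes were tested. None was called by limma, against 26.7% of all tested probe sets in either direction, and the median change was -0.18. Tead2, Tead3 and Tead4 were at 0.18, 0.49 and -0.25, and Vgll3 and Vgll4 at -0.18 and -0.22. At an unadjusted p under 0.05 the count was 0 as well with limma (23.6% higher and 17.7% lower of all tested probe sets). It was also 0 with the methods' t-test (15.2% and 8.6%).

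Of 16 other known YAP and TAZ target genes, 12 were tested, and 1 was higher and 4 lower, against 14.6% and 12.1% of all tested probe sets. The median change was 0.05. At an unadjusted p under 0.05 there were 2 higher and 4 lower with limma (23.6% and 17.7% of all tested probe sets). With the methods' t-test there were 0 higher and 0 lower (15.2% and 8.6%). Ptpn14, a phosphatase that is itself a brake on YAP, fell by 1.59 on the log2 scale, with signals of 181 and 529 against 907 and 1068 (adjusted p = 0.0325 from limma). F3, the tissue factor of blood clotting, fell by 1.41, with signals of 213.5 and 550.2 against 840 and 1106 (adjusted p = 0.0372). In both genes wild type siRNA replicate 1 was the lowest array. Dock5, an activator of Rac, was at -1.30 (adjusted p = 0.0119), and Rbms3, an RNA-binding protein, was at -1.28 (adjusted p = 0.0115). Myof, a membrane repair protein, was the single gene called higher, at 0.89 (adjusted p = 0.0294).

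These calls, each from the brightest probe set of its gene, depended on single arrays and, for some genes, on the probe set. Without mutant siRNA replicate 1 all 5 calls were lost, with adjusted p of 0.0948 for Ptpn14, 0.0880 for F3, 0.0748 for Dock5, 0.0746 for Rbms3 and 0.152 for Myof. Without wild type siRNA replicate 1, Ptpn14 and F3 were lost (adjusted p = 0.0553 and 0.0935), and without mutant siRNA replicate 2, Ptpn14, F3 and Myof (adjusted p = 0.130, 0.164 and 0.0623). Myof was also lost without wild type siRNA replicate 2 (adjusted p = 0.0927). A second probe set of Dock5 was called in the other direction, at 1.02 (adjusted p = 0.0123). Further probe sets of Ptpn14 and Rbms3 were called lower, at -1.31 and -2.07. With an array left out in turn, this further Rbms3 probe set stayed between -2.48 and -1.66. Others of Ptpn14 did not pass, at 0.93 and -0.11 (adjusted p = 0.0705 and 0.818 from limma), nor did another of Rbms3, at -0.72 (adjusted p = 0.256). The brightest probe set of Asap1 did not pass (0.58, adjusted p = 0.114), while others were called higher at 1.19 and 1.14 and a further one was at -0.96 (adjusted p = 0.105, and 0.0454 with the replicate block). The brightest of Arhgef17 did not pass (0.28, adjusted p = 0.469), while another was called lower at -1.30. Nuak2, a kinase of the AMPK family, was at 0.79 (adjusted p = 0.185) and passed with the replicate block (adjusted p = 0.0251).

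**Figure D4:**
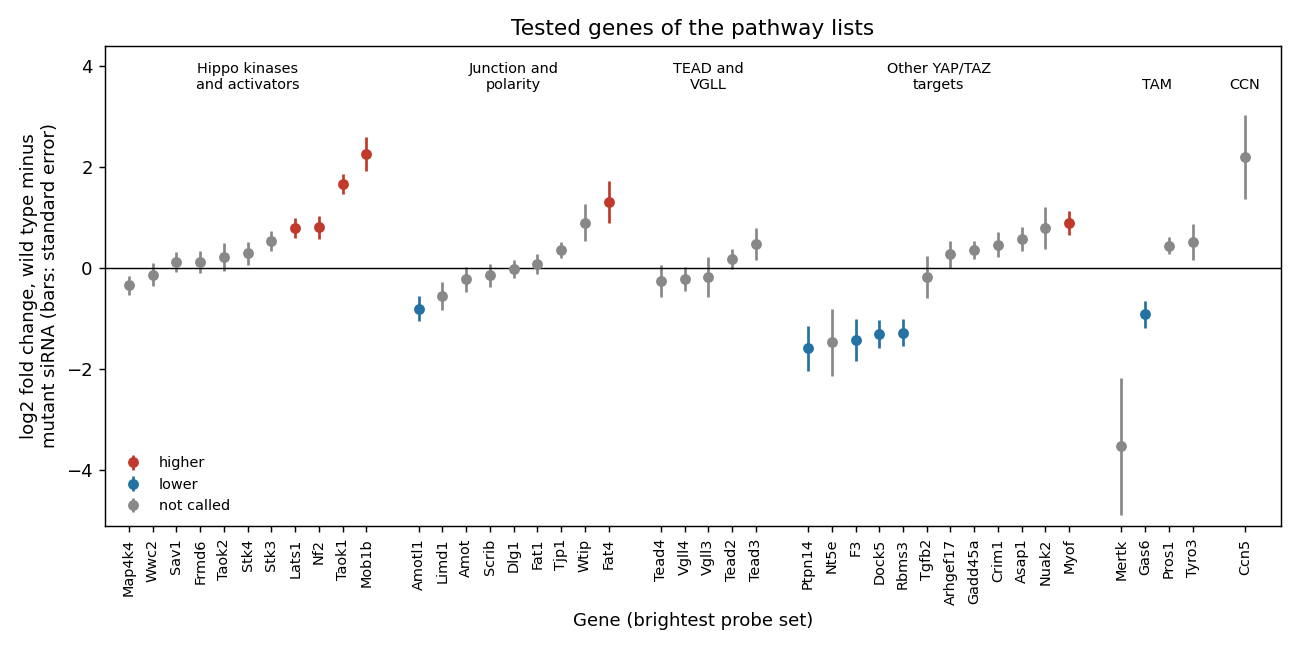
Log2 fold change, wild type minus mutant siRNA, of the 42 tested genes of the pathway lists, with bars for the standard error. Red genes were called higher, blue genes lower and grey genes not called. The called genes of the Hippo kinase list are all above 0, from 0.80 for Lats1 to 2.26 for Mob1b, whereas those of the other YAP and TAZ targets lie on both sides.

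Of the TAM receptors and ligands, the relatives of Axl, all 4 genes were tested, with a median change of -0.23. None was called higher and 1 lower, against 14.6% and 12.1% of all tested probe sets. With limma there were 1 higher and 2 lower at an unadjusted p under 0.05 (23.6% and 17.7% of all tested probe sets). The methods' t-test gave 1 higher and 0 lower (15.2% and 8.6%). Gas6, the ligand of Axl, fell by 0.91 on the log2 scale, with signals of 1466 and 1894.5 against 4256 and 2580 (adjusted p = 0.0389 from limma). Its call was lost without wild type siRNA replicate 1 or mutant siRNA replicate 1 (adjusted p = 0.115 and 0.227). Pros1, a further ligand of the family, was at 0.45 and the receptor Tyro3 at 0.51, and neither passed (adjusted p = 0.0892 and 0.311). Mertk, a further receptor, had signals of 3.80 and 93.5 with the wild type siRNA and 315 and 167 with the mutant siRNA. It did not pass (adjusted p = 0.0848), but passed with the replicate block (adjusted p = 0.0262), and with a signal near background the size of this difference cannot be set. Of the other CCN genes, Ccn3, Ccn4 and Ccn6 did not reach the filter, and Ccn5, at signals of 114 and 257 against 83.2 and 18.6, did not pass (adjusted p = 0.0835).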

How the data were processed

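The values the authors deposited are intensities on a linear scale, 1 MAS5 signal per probe set for 4 Affymetrix Rat 230 2.0 arrays, and on each array the mean is 500 when the lowest and highest 2% are trimmed. The median normalization, detection calls and tests of the study are not in these values. Of 31099 probe sets, 57 controls were left out. The platform annotation gives 20826 of the other 31042 a single symbol, 436 several and 9780 none. Probe sets with several symbols were not used.

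Signals were turned to log2, the array median was subtracted, and the values were fitted with limma 3.58.1 (lmFit and eBayes with an intensity trend) in R 4.3.3 on all 16125 probe sets that were at or above the median on at least 2 arrays. An alternative fit had the replicate number as a block, because the submitters' design text speaks of paired cells. Arrays of 1 number deviated together from their groups' means with a correlation of 0.14. Intervals are 95%. All members with a probe set were named, and of each list up to 4 called genes with the largest change, Sox10 as the target and others by value. Members and lists were chosen with earlier results of these data known. Python 3.11.15 with pandas 2.3.3 and matplotlib 3.10.9 served for tables and figures. The actin control's 3' signal was 1.54 and 1.39 times its 5' signal on the wild type siRNA arrays and 1.87 and 1.52 times on the mutant siRNA arrays. The number of arrays limits the precision.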

Additional observations from a re-analysis of the deposited data

How the results depend on the processing

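Of the 12 probe sets, 3 were higher under either other scaling, either treatment of low signals, either other filter and robust eBayes. The count was 6 with the replicate block, 1 without the intensity trend, 1 by the methods' t-test (unpaired, equal variances, unadjusted p) and 0 by that test after Benjamini-Hochberg adjustment, and between 2 and 5 with an array left out in turn. The count lower was 0 to 1 with an array left out and 0 otherwise. Of the pathway list genes, 6 were higher and 6 lower. Without the trend these counts were 2 and 1, by the adjusted t-test 0 and 0, and by the unadjusted t-test 6 and 0. With an array left out they were between 3 and 5 and between 0 and 8. Counting a gene when any of its probe sets was called, chosen after seeing the data, gave 9 and 7, and the replicate block 9 and 7. The sign turned for the first Ajuba probe set, at -0.058 with signals as deposited and -0.096 after quantile normalization, and between -0.25 and 0.29 with an array left out, and for Wwtr1, between -0.031 and 0.44 with an array left out. Over all probe sets, 2348 were higher and 1956 lower, against 1177 and 1187 without the trend, 2 and 0 by the adjusted t-test, and 924 to 2128 and 706 to 2519 with an array left out. The causes were not tested.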
